A study of Homo sapiens with 6 samples.

Results

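The genes of the methionine and homocysteine cycle were examined in ARPE-19, an established human retinal pigment epithelial cell line. The set holds 9 of the 20461 genes with an Ensembl identifier in the tables: BHMT2, BHMT, MTR, MTRR, MAT2A, MAT2B, AHCY, CBS and SLC19A1. They were picked by symbol with results of the same contrast already known, BHMT2 for its fall and the others as its pathway neighbours, so their values are given as a description. They went through the fit over all genes, but whether a member passed its threshold follows from that choice and supports nothing. A wider set of 84 pathway genes was tested for comparison.

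RNA sequencing covered 2 groups of 3 libraries each. The first carried a control lentivirus and the second a lentivirus overexpressing PDZK1, a scaffold protein that tethers membrane transporters. Cells of both groups were transduced at an MOI of 10, selected with 4 µg/ml puromycin and held for 48 h in 37.5 mM glucose, so every value comes from high glucose and neither group was free of virus or drug. The comparison rests on a single cell line and a single overexpression vector. The labels do not say whether the replicates were separate cultures, and the study's general statement on independent experiments does not name these libraries, so p-values measure the spread between these libraries, which may be technical. In bulk RNA, fewer cells of a kind and less RNA per cell cannot be told apart.

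In the methionine cycle, methionine is activated to S-adenosylmethionine, the methyl donor of most methyltransferases, and the product is hydrolysed to homocysteine. Homocysteine is then either condensed with serine on the way to cysteine, or remethylated to methionine by methionine synthase, which takes the methyl group from folate with cobalamin as cofactor, or by a methyltransferase of the BHMT family. BHMT uses betaine, an oxidation product of choline, and is best known from liver and kidney, whereas its close relative BHMT2 is known to favour S-methylmethionine over betaine. The retinal pigment epithelium passes folate from the choroid to the retina, in part through the reduced folate carrier SLC19A1.

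Each library held between 27970618 and 32804567 counts. PDZK1 itself had 19, 18 and 23 counts in control against 3020, 2541 and 2828 with PDZK1 (log2 fold change 7.03, adjusted p = 8.16e-09), so the 6 libraries split as labelled. Of 13645 genes tested with edgeR's quasi-likelihood test and Benjamini-Hochberg adjustment, 522 (3.83%) passed an adjusted p of 0.05, with 193 rising and 329 falling with PDZK1. That number lay between 181 and 875 when a single library was left out, the highest without control replicate 3. Of 13 retinal pigment epithelium markers, 10 lay above 3 counts in every library, with summed levels of 1913 to 2153 CPM (counts scaled to library size) in control and 1970 to 2438 CPM in PDZK1 libraries. Most of each sum came from the keratins KRT8 and KRT18, with 1221 and 820 CPM in control replicate 1. In that library OTX2 had 57.0, MITF 38.8, RLBP1 3.78 and PMEL 1.89 CPM. The visual cycle enzyme RPE65 and the pigment enzyme TYR lay at or under 3 counts throughout, and BEST1 stood at 11459 counts in PDZK1 replicate 1 against 124 to 181 in the others. At 358 CPM in that library, BEST1 was part of the highest sum of 2438 CPM. LRAT and SERPINF1 were lower in every PDZK1 library than in every control library, and no listed marker was higher in every one. Of 7 hepatocyte markers, ALB, APOA1, APOB, HNF4A and CYP3A4 lay at or under 3 counts in every library. The list summed to 7.80 to 10.9 CPM in control and 9.52 to 11.0 CPM in PDZK1 libraries, nearly all of it SERPINA1. Of 6 markers each, 2 lay above 3 counts in every library for kidney proximal tubule (2.54 to 2.63 CPM in control, 1.86 to 2.62 CPM with PDZK1), for photoreceptors (14.3 to 16.2 and 14.5 to 16.5 CPM) and for fibroblasts (67.7 to 81.0 and 82.1 to 89.9 CPM). LRP2, SLC34A1 and SLC22A6, RCVRN, CRX and GNAT1, and COL1A2, THY1, DCN and LUM were at or under 3 counts throughout.

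Promoter windows are shown for BHMT2 and its paralog and for the methionine adenosyltransferase pair, whose members stood at very different levels, as 250 bases before and 50 bases from the RefSeq start on GRCh38.p14, written 5′ to 3′ along the gene. RefSeq windows were matched for 8 of the 9 members, all but MTRR. BHMT2 (chr5:79069517-79069816, plus strand) is shown because its start at 79069767 lies 93 bp from that of DMGDH at 79069674, which is read in the opposite direction and whose counts were also lower with PDZK1. Capitals mark the 92 bases between both starts.
BHMT2: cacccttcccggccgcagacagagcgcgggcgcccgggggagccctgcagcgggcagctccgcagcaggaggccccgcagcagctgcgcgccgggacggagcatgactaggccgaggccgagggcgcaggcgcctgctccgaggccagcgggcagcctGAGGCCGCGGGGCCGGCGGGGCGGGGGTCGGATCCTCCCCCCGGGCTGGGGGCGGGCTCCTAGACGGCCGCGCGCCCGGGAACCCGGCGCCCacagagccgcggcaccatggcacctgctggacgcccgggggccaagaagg
The window of BHMT2 held 38 CpG, more than 90.1% of the 35116 RefSeq windows, and had a GC content of 80.0% against a median of 58.7%. On both strands it held no TATAAA, found in 11.5% of all windows, no CCAAT, found in 34.6%, and 2 copies of GGGCGG, found in 45.0%. The window of its tandem neighbour BHMT (chr5:79111559-79111858, plus strand) held 21 CpG, 1 TATAAA, in capitals, 1 GGGCGG and no CCAAT.
BHMT: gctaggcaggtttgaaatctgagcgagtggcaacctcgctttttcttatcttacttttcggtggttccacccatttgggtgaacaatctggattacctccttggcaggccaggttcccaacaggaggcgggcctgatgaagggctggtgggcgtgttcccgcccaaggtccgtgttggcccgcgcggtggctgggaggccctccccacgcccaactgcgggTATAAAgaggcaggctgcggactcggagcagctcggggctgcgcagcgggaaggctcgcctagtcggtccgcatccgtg
The windows of both catalytic methionine adenosyltransferase genes differed in the same features. That of MAT2A (chr2:85538918-85539217, plus strand) held 43 CpG, 1 TATAAA, in capitals, and, not capitalised, 1 CCAAT and 3 copies of GGGCGG. That of MAT1A (chr10:80289609-80289908, minus strand) held 3 CpG, no TATAAA, no GGGCGG and 2 copies of CCAAT, in capitals as read on either strand.
MAT2A: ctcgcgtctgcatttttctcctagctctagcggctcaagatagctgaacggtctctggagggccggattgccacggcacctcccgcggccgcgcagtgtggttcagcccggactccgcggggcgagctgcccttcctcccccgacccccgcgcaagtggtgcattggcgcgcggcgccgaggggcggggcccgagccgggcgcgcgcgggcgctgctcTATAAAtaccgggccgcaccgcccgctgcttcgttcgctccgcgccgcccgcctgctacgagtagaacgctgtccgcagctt
MAT1A: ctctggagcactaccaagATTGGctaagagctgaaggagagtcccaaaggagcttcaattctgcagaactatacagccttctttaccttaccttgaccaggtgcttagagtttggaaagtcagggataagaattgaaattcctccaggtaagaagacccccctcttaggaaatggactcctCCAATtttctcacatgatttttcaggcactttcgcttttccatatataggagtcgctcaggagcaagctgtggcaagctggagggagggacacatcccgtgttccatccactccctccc
A match of letters is a description of the window and not evidence of a bound factor.

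Set side by side per transcript length, the members spanned a wide range of levels in the control libraries. Mean FPKM (fragments scaled to transcript length and library size) was 151 ± 3.61 for MAT2A, 90.7 ± 2.1 for AHCY, 36.75 ± 1.40 for MAT2B, 15.25 ± 2.61 for CBS, 10.7 ± 0.235 for MTRR, 7.55 ± 0.176 for MTR, 2.91 ± 0.341 for SLC19A1 and 2.18 ± 0.208 for BHMT2 (SD, n = 3), and BHMT was near 0. No neighbours in this order overlapped in the control libraries. With PDZK1 the group means kept this order, CBS and MTRR overlapped, and BHMT2 averaged 0.155 ± 0.0834 FPKM.

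**Figure D1:**
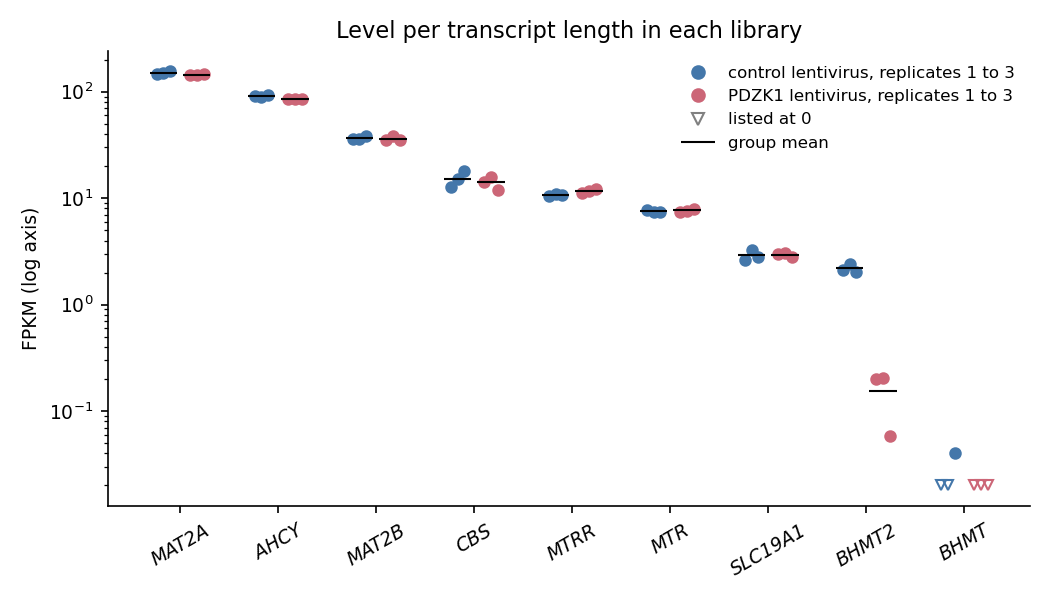
FPKM of the 9 genes on a log axis, with a point for each library, control in blue and PDZK1 in red, a black line for each group mean and an open triangle for a value listed at 0; no mean is drawn for BHMT. Blue and red points lie close together for 7 genes, whereas the BHMT2 points drop from 2.03 to 2.42 FPKM in control to 0.0586 to 0.204 FPKM with PDZK1.

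In the BHMT branch of remethylation 1 of 2 genes was detected, and its level was far lower with PDZK1. BHMT2 (ENSG00000132840, chr5:79069717-79089466, plus strand, GRCh38) had 193, 208 and 160 counts in control against 19, 19 and 6 counts with PDZK1. Scaled to library size these were 5.97, 6.73 and 5.80 CPM against 0.593, 0.580 and 0.189 CPM. The groups did not overlap, and the lowest control library lay far above the highest PDZK1 library, with replicate 3 the lowest in each group. Mean levels were 6.17 ± 0.497 CPM in control and 0.454 ± 0.229 CPM with PDZK1 (SD, n = 3), a log2 fold change of -3.75 with a standard error of 0.32 and a 95% interval of -4.48 to -3.02, or 13.45-fold lower. The coefficient of variation was 8.06% in control and 50.5% in PDZK1 libraries, where few reads remained. The value on log2(FPKM + 1), which understates the change of a gene this low, was -1.46.

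BHMT (ENSG00000145692, chr5:79111779-79132290, plus strand), the betaine-using paralog next to it, was not detectable at this depth. It had 0, 0 and 3 counts in control and 0, 0 and 0 in PDZK1 libraries, all at or under the 3 counts that a count of 0 allows, so no fold is given. BHMT2 shared 3.58% of its transcript stretches of 50 bases with BHMT, and the fit on the counts of both summed gave -3.76.

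The genes of the folate branch differed little between groups. Methionine synthase, MTR (ENSG00000116984, chr1:236795281-236903981, plus strand), had 86.1, 85.7 and 84.8 CPM in control and 83.3, 87.0 and 89.5 CPM in PDZK1 libraries. The PDZK1 libraries lay on both sides of the narrow control range, and the log2 fold change was 0.02 with a standard error of 0.04 and a 95% interval of -0.075 to 0.111. MTRR (ENSG00000124275, chr5:7851186-7906025, plus strand), the reductase that restores methionine synthase after its cobalamin is oxidised, had 35.5, 36.9 and 34.9 CPM in control and 37.2, 39.6 and 40.01 CPM with PDZK1. Every PDZK1 library was above every control library, by a small margin, with a log2 fold change of 0.12 and a 95% interval of 0.001 to 0.247. This interval is not adjusted for the number of genes tested, and MTRR did not pass the threshold. Exons of MTRR share 4.69% of their bases with C5orf49 and 1.54% with FASTKD3 on the other strand, and whether counting used strand is not given in the sources used here.

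Set against MTR, the FPKM of BHMT2 and BHMT together made up 21.4%, 24.4% and 21.8% of the sum of the 3 genes in the control libraries. In the PDZK1 libraries this share was 2.65%, 2.61% and 0.731%. MTR transcripts per length exceeded those of BHMT2 and BHMT by 3.68, 3.09 and 3.58 times in control and by 36.7, 37.3 and 136 times with PDZK1. Group means of the share were 22.5% ± 1.66 and 2.00% ± 1.10 (SD, n = 3), without overlap. The log2 ratio of BHMT2 and BHMT to MTR was -1.78 ± 0.135 in control and -5.84 ± 1.08 with PDZK1, a difference of -4.05, and it was -3.43 without PDZK1 replicate 3, the library with the fewest BHMT2 reads. These are shares of transcript, not of enzyme or of flux. The lower share carries the fall for which BHMT2 was chosen, so it is given as a description.

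**Figure D2:**
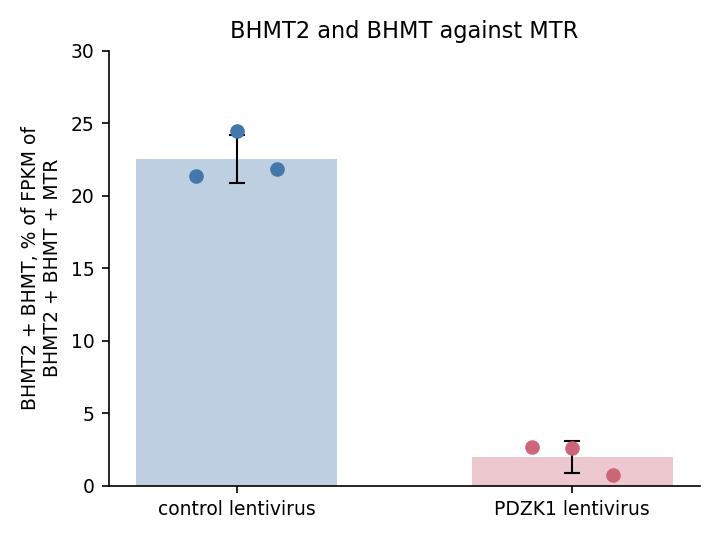
BHMT2 and BHMT as a percent of the FPKM of BHMT2, BHMT and MTR, with a point for each library, bars for the group mean and error bars for the SD of 3 libraries, on an axis from 0. The control points lie at 21.4% to 24.4% and the PDZK1 points at 0.731% to 2.65%.

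The genes that make and use S-adenosylmethionine moved by small steps. MAT2A (ENSG00000168906, chr2:85539165-85545280, plus strand), the catalytic methionine adenosyltransferase of tissues other than liver and the most abundant member, had 421, 429 and 443 CPM in control and 410, 406 and 412 CPM with PDZK1. The PDZK1 libraries all lay below the control libraries, and the log2 fold change was -0.07 (95% interval -0.151 to 0.003). Exons of MAT2A share 12.4% of their bases with GGCX on the other strand. MAT2B (ENSG00000038274, chr5:163503114-163519336, plus strand), its regulatory subunit, had 90.1, 94.98 and 94.8 CPM in control and 96.3, 93.3 and 95.4 CPM with PDZK1. Both groups overlapped, with a log2 fold change of 0.03 (95% interval -0.062 to 0.114) that turned to -0.02 on the FPKM values.

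AHCY (ENSG00000101444, chr20:34280268-34311802, minus strand) hydrolyses S-adenosylhomocysteine, the product of methyltransferases, to homocysteine. It had 213, 207 and 217 CPM in control and 200, 199 and 196 CPM with PDZK1. The PDZK1 libraries were all below the control libraries, and the log2 fold change was -0.10 with a 95% interval of -0.172 to -0.025. That interval is not adjusted for the number of genes tested, and AHCY did not pass the threshold. The annotation holds 6 numbered AHCY pseudogenes, so its level is uncertain where they share reads.

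The exit from the cycle and the folate carrier varied more between libraries of a group than between groups. CBS (ENSG00000160200, chr21:43053191-43076943, minus strand), cystathionine beta-synthase, condenses homocysteine with serine and so withdraws it from remethylation. It had 33.2, 39.2 and 47.3 CPM in control and 37.1, 41.1 and 31.5 CPM with PDZK1. The groups overlapped, control replicate 3 was the highest of the 6 libraries, and the log2 fold change was -0.12 (95% interval -0.496 to 0.247). Without control replicate 3 it was 0.01. CBS shares 54.5% of its stretches of 50 bases with its near-identical copy CBSL, which was not analysed here, so its level is uncertain.

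SLC19A1 (ENSG00000173638, chr21:45493572-45544411, minus strand), the reduced folate carrier, had 13.9, 16.7 and 15.0 CPM in control and 15.3, 14.7 and 14.5 CPM with PDZK1. The PDZK1 libraries lay inside the control range, with a log2 fold change of -0.04 and a 95% interval of -0.236 to 0.166. The sign turned in the fits on FPKM and without control replicate 2 (0.04). Exons of SLC19A1 share 14.0% of their bases with COL18A1 on the other strand, a gene that had 6085 counts in control replicate 1 against 449 for SLC19A1.

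BHMT failed the filter on low counts, so 8 of the 9 members were tested, 3 with a higher and 5 with a lower estimate and a median log2 fold change of -0.055 (0.0 over all tested genes). BHMT2 passed the threshold, 1 of 8 or 12.5%, beside 3.83% of all tested genes in either direction, 1.41% higher and 2.41% lower. No overlap of the groups was found for BHMT2, MAT2A and AHCY on the lower side and for MTRR on the higher side, beside 12.3% and 11.6% of all tested genes and 23.9% in either direction. Because the members were chosen from this contrast, nothing is read from these counts.

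**Figure D3:**
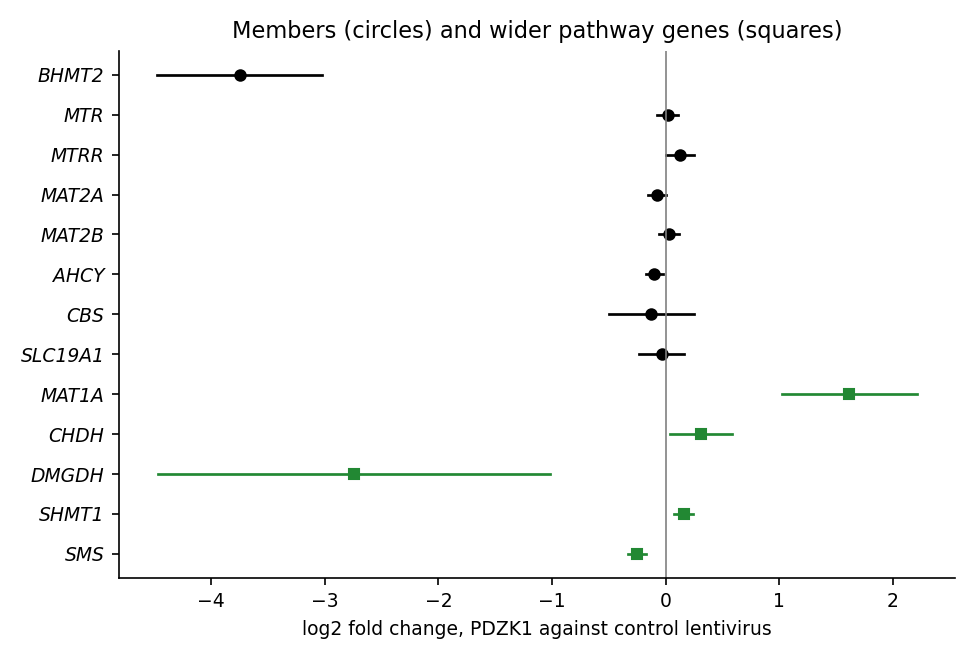
Log2 fold change of PDZK1 against control lentivirus with its 95% interval from the edgeR model, for the 8 members tested (black circles) and for 5 wider pathway genes (green squares). BHMT2 lies at -3.75 and the other 7 members between -0.12 and 0.12, while MAT1A lies at 1.62 and DMGDH, with a wide interval, at -2.74.

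Of the 84 wider genes 74 were tested, 34 with a higher and 40 with a lower estimate (median -0.026). Of these, 4 passed the threshold, 5.41% beside 3.83% of all genes, among them MAT1A and SHMT1, which rose, and SMS, which fell. An unadjusted p under 0.05 was found for 18 of the 74, beside 2388 of all 13645 tested genes. With the replicate number as a block, none of the 4 passed.

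Among the 5 other methionine cycle genes tested, MAT1A passed. MAT1A (ENSG00000151224, chr10:80271820-80289684, minus strand) is the methionine adenosyltransferase typical of hepatocytes. It had 38, 25 and 19 counts in control and 91, 84 and 91 counts in PDZK1 libraries. The groups did not overlap, and levels rose from 0.891 ± 0.254 to 2.76 ± 0.169 CPM (SD, n = 3; log2 fold change 1.62, standard error 0.265, adjusted p = 0.0102), and its FPKM with PDZK1 was 0.695 to 0.806 beside 143 to 145 for MAT2A. The adjusted p was 0.0588 without control replicate 2, 0.0654 without PDZK1 replicate 1, 0.0593 without PDZK1 replicate 3 and 0.0535 with the replicate block. AHCYL1, AHCYL2, ADK and METTL16 did not pass, with log2 fold changes from -0.14 to 0.05.

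None of the 9 betaine and choline genes tested passed in edgeR (median 0.04). Of the 9, 4 had an unadjusted p under 0.05, beside 2388 of all 13645 tested genes. In DESeq2 DMGDH passed, and on log2(FPKM + 1) without a filter DMGDH and SLC6A20. DMGDH, the mitochondrial dehydrogenase that oxidises the dimethylglycine left by BHMT, had 36, 46 and 45 counts in control and 15, 5 and 0 counts with PDZK1. All PDZK1 libraries lay below all control libraries, and the edgeR log2 fold change was -2.74 with a standard error of 0.745 and an adjusted p of 0.0967. DESeq2 gave -2.77 with an adjusted p of 0.00795. DMGDH lies at chr5:78997606-79236038 on the minus strand in GENCODE 29, spanning BHMT2 and BHMT; it shares no exonic base with BHMT2 and covers 6.79% of those of BHMT, and the fit on the summed counts of BHMT2 and DMGDH gave -3.51. SLC6A20, an imino acid transporter, had 29, 28 and 23 counts against 11, 12 and 7 (log2 fold change -1.49, adjusted p = 0.0551) and was singled out after its values were seen. CHDH, which starts the oxidation of choline to betaine, had 11.4 ± 1.34 CPM in control and 14.1 ± 1.80 CPM with PDZK1 (log2 fold change 0.31, adjusted p = 0.222), and 18.0% of its exonic bases overlap CACNA1D on the other strand.

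In the folate cycle 2 of 19 tested genes passed, 10.5% beside 3.83% of all tested genes (median -0.07), among them SHMT1. SHMT1 (chr17:18327860-18363563, minus strand), the cytosolic serine hydroxymethyltransferase that loads one-carbon units from serine onto folate, had 91.4, 93.3 and 95.5 CPM in control and 103, 106 and 103 CPM with PDZK1. Its log2 fold change was 0.16 (standard error 0.04, adjusted p = 0.0482), at the edge of the threshold, and the adjusted p was 0.137 to 0.178 when control replicate 1 or 2 or PDZK1 replicate 1, 2 or 3 was left out, 0.157 with the block and 0.328 to 0.341 on FPKM. The mitochondrial counterpart SHMT2 (0.05) and MTHFD1 (0.00) did not pass.

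Methionine salvage and polyamine synthesis use up S-adenosylmethionine outside methyl transfer and recover its sulphur. Of 10 genes in this list 1 passed, 10.0% beside 3.83% of all tested genes (median -0.10). SMS (chrX:21940573-21994835, plus strand), spermine synthase, had 426, 436 and 445 CPM in control and 369, 370 and 359 CPM with PDZK1. All PDZK1 libraries were lower, with a log2 fold change of -0.25 (standard error 0.03, adjusted p = 0.00398). The call held without each library in turn but not with the block (adjusted p = 0.0535). SRM, spermidine synthase, had a log2 fold change of -0.21 and an adjusted p of 0.0593, and passed in DESeq2. It lies on the short arm of chromosome 1, where the 77 tested genes within 5 Mb had a median log2 fold change of -0.23, with 74 of them lower, and the part of this stretch in its value was not tested. SRM was singled out after its values were seen.

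No gene passed in edgeR in the 3 remaining lists, in which 2, 2 and 1 genes had an unadjusted p under 0.05 and 0, 0 and 1 passed in DESeq2. Over all 13645 tested genes, 2388 had an unadjusted p under 0.05. Of 12 folate and cobalamin uptake genes (median -0.01) ABCD4, which moves cobalamin out of lysosomes, had the largest change among genes of at least 5 CPM (0.20, adjusted p = 0.106). Of 12 genes of transsulfuration and cysteine use (median 0.04) it was TST, a mitochondrial thiosulfate sulfurtransferase (0.21, adjusted p = 0.238), and CTH, which splits the cystathionine made by CBS, had 0.11. Of 7 small-molecule methyltransferases (median -0.07) it was ICMT, which methylates prenylated proteins (-0.22, adjusted p = 0.0664, and 0.0261 in DESeq2). ICMT too lies on the short arm of chromosome 1, where 89 of the 91 tested genes within 5 Mb were lower, with a median of -0.23.

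**Figure D4:**
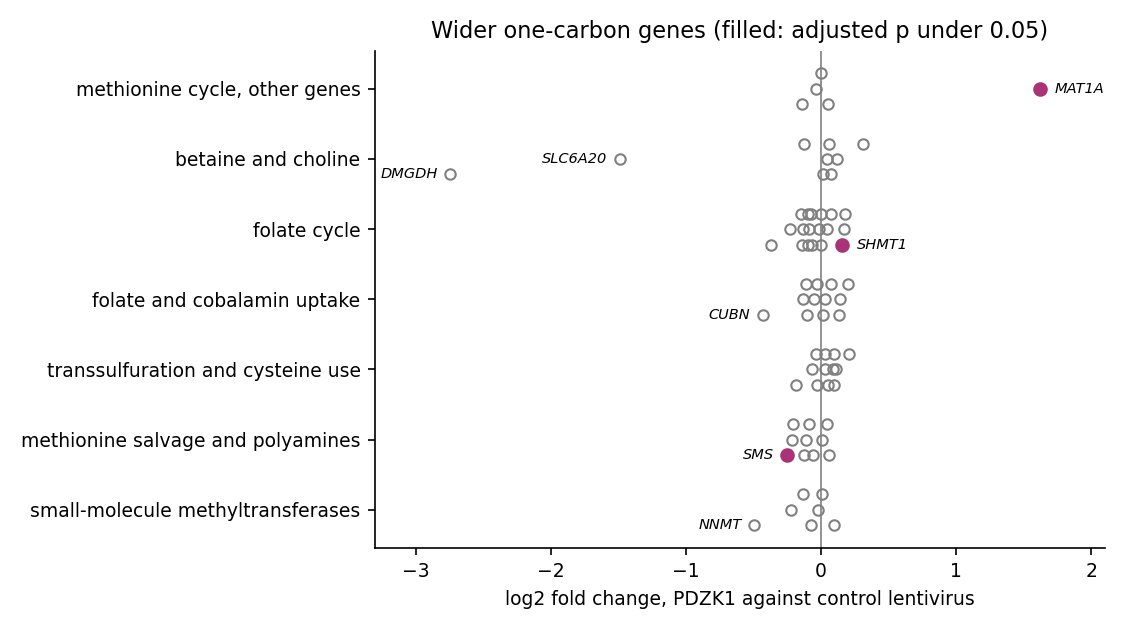
Log2 fold change of PDZK1 against control lentivirus for tested wider genes, with 1 line per list and a circle per gene that is filled where the adjusted p was under 0.05. MAT1A (1.62), SHMT1 (0.16) and SMS (-0.25) are filled, while DMGDH (-2.74) and SLC6A20 (-1.49) lie farthest to the left as open circles.

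The neighbourhood of BHMT2 was described because BHMT2 and DMGDH lie head to head in RefSeq. The annotations differ here, since GENCODE 29 starts DMGDH 166.3 kb beyond the start of BHMT2 and runs it across BHMT2 and BHMT. Of 12 genes that start within 1 Mb of BHMT2, 11 were tested, 6 with a lower and 5 with a higher estimate. Of the 11, 1 passed, beside 3.83% of all tested genes. It was LHFPL2, a tetraspan membrane protein gene at -299.7 kb from the start of BHMT2, which fell from 138 ± 7.69 to 109 ± 4.08 CPM (log2 fold change -0.34, adjusted p = 0.00400). CMYA5 had 25, 28 and 32 counts in control and 18, 15 and 13 with PDZK1 (-0.98, adjusted p = 0.164). AP3B1, SCAMP1, ARSB, JMY, HOMER1, TENT2, MTX3 and THBS4 had log2 fold changes from -0.22 to 0.10, and none passed. The 48 tested genes within 5 Mb of BHMT2 had a median of -0.006, with 25 lower and 23 higher.

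**Figure D5:**
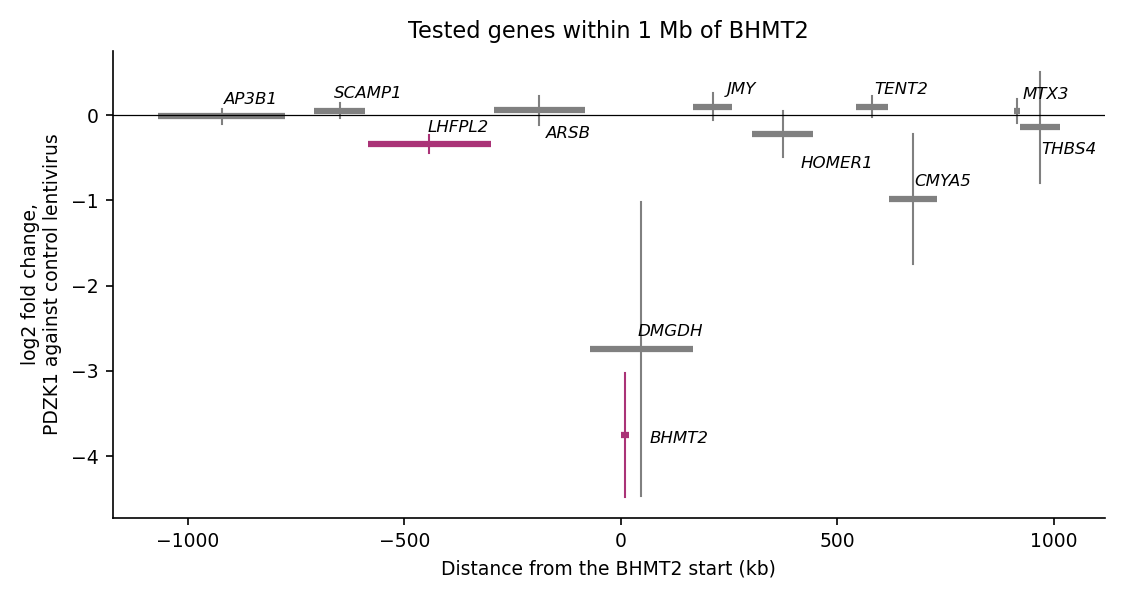
Log2 fold change of the tested genes within 1 Mb of BHMT2 against their distance from its start in kb, where horizontal bars span each gene, vertical lines are 95% intervals and purple marks an adjusted p under 0.05. BHMT2 (-3.75) lies inside the span of DMGDH (-2.74) as GENCODE draws it, both below the other genes, with LHFPL2 (-0.34) as the other purple bar.

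Over the 6 libraries the genes of at least 5 CPM whose log2 CPM was most like that of BHMT2 were BTBD3, ECHDC3 and B4GALNT4, with Pearson's r of 0.9991, 0.9975 and 0.9952. In all, 176 of 11218 genes compared had r over 0.95. The 6 points fall into the 2 groups, and r is given as a description. Since these genes were picked by their likeness to BHMT2, itself chosen for its fall, their levels are a description too. Their lower levels with PDZK1, their order within that group and their adjusted p are no independent support. BTBD3 had 66.2, 67.3 and 66.9 CPM in control and 57.1, 57.3 and 53.4 CPM with PDZK1. ECHDC3 had 17.6, 17.9 and 17.4 CPM against 15.0, 15.0 and 13.8 CPM. B4GALNT4, an N-acetylgalactosaminyltransferase gene, had 8.98, 8.61 and 9.13 CPM against 5.40, 5.31 and 4.16 CPM. All 3 were lowest in PDZK1 replicate 3, as BHMT2 was, but by far smaller steps, with log2 fold changes of -0.26 (adjusted p = 0.0202), -0.27 (adjusted p = 0.0881) and -0.84 (adjusted p = 0.00815). The adjusted p of BTBD3 was 0.0526, 0.0883, 0.0765 and 0.0833 without control replicates 1 and 2 and PDZK1 replicates 1 and 3, 0.0863 with the replicate block and 0.317 to 0.341 on FPKM, and that of B4GALNT4 was 0.0535 with the block.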

How the data were processed

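Libraries were made from total RNA of ARPE-19 cells, 3 per group. Per the submitters' processing notes, fastp 0.20.1, HISAT2 2.2.1 and GRCh38 were used; the counting program, annotation and strand setting are not given in the sources used here. The authors deposited estimated counts, as whole numbers per gene without depth scaling, and FPKM deposited by the authors, scaled by transcript length and library. Of 21314 entries, 853 assembled loci (0.519% to 0.536% of counts) were left out. Both tables also hold 3 per-sample columns that match no sample and were not used here.

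Total counts ran from 27970618 to 32804567 per library. Groups came from the labels. Counts were tested with edgeR 4.0.16 in R 4.3.3 (filterByExpr, TMM, robust quasi-likelihood test, two-sided, Benjamini-Hochberg adjustment over 13645 genes, threshold 0.05). CPM used TMM-scaled library sizes, and errors are SD over 3 libraries. A level of 3 counts was taken as the floor, covering counting error only, since PCR copies were not told apart by molecular identifiers. Replicates showed more spread than sampling noise (chi-square per degree of freedom 6.8 to 19.1), so none was a copy. FPKM served for levels between genes. Coordinates are 1-based, from GENCODE 29 on GRCh38, which matched 20229 identifiers. Exonic overlap and shared stretches of 50 bases were read from the same annotation.

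The members, lists and tests were chosen with earlier results of these data known. The text names all members, PDZK1, wider genes past the threshold, otherwise the largest change of each list at a mean of at least 5 CPM, genes within 1 Mb of BHMT2, overlapping genes or near-identical copies, and the 3 genes most correlated with BHMT2. Cell type markers were read as summed CPM. Some listed genes count in the totals but are not reported here or drawn. The alternatives were DESeq2 1.42.0, size factors (RLE), library totals, a filter of at least 1 count, limma 3.58.1 on log2 FPKM with pseudocounts of 1 and 0.1 (mean FPKM of at least 0.5, or no filter), the replicate number as a block, each library left out, and summed counts of paralogs. The scripts were tested on simulated counts.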

Additional observations from a re-analysis of the deposited data

How the results depend on the processing

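Nothing in the labels says that equal replicate numbers share a culture or day, and the deviations of same-numbered libraries from their group means correlated at -0.046, -0.056 and -0.143, so the numbers were not taken to pair the libraries. With the replicate block 163 genes passed (59 higher, 104 lower), and 0 wider pathway genes. The log2 fold change of BHMT2 ran from -3.98 to -1.46 over 16 alternatives, the smallest on log2(FPKM + 1). Since BHMT2 was chosen for its fall in these libraries, its passing the threshold again in refits of them is no independent support. PDZK1 stayed past the threshold in all 14 (4.92 to 7.21). The log2 ratio of BHMT2 and BHMT to MTR differed by -3.96 on CPM per exonic length and by -4.37 to -3.43 with a library left out. This ratio carries the same fall of BHMT2, so its range is no independent support either. The count over all genes was 814 in DESeq2, 184 on log2(FPKM + 1), 185 on log2(FPKM + 0.1), 185 on log2(FPKM + 1) without the filter, and 181 to 875 with a library left out: 268, 186 and 875 without control replicates 1, 2 and 3, and 181, 293 and 206 without PDZK1 replicates 1, 2 and 3. Library totals gave 517 genes, with 241 higher and 276 lower. The count of wider genes was 7 in DESeq2, 1 on log2(FPKM + 1), 1 on log2(FPKM + 0.1) and 4 on log2(FPKM + 1) without the filter. MAT1A and DMGDH were not tested in the filtered FPKM fits. With a library left out it was 1 to 5: 2, 1 and 5 without control replicates 1, 2 and 3, and 1, 3 and 1 without PDZK1 replicates 1, 2 and 3. Near BHMT2, 2 genes passed in DESeq2, and LHFPL2 had an adjusted p of 0.0638 on log2(FPKM + 1) without the filter. The cause of these differences was not tested.

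Signs turned in small values that never passed: MAT2B (-0.018 in the 3 FPKM fits), SLC19A1 (0.010, 0.014 and 0.010 in those fits, 0.036 without control replicate 2), CBS (0.014 without control replicate 3), MTR (-0.006 without PDZK1 replicate 3), ARSB (-0.025 without control replicate 3) and AP3B1 (0.006 with library totals, 0.014, 0.015 and 0.014 on FPKM, 0.026 without PDZK1 replicate 1). With a library left out, the values ran from -0.097 to 0.036 for SLC19A1, -0.241 to 0.014 for CBS, -0.006 to 0.047 for MTR, -0.025 to 0.113 for ARSB and -0.034 to 0.026 for AP3B1. The fit on the summed counts of CBS and CBSL was not run, since CBSL was not analysed here. Depth limits BHMT, and MAT1A, DMGDH and SLC6A20 rest on fewer than 100 counts per library.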
